A study of Rattus norvegicus with 8 samples.

Results

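The genes described here build, cross-link and cut the extracellular matrix: the collagens, the laminin chains, the lysyl oxidases, the matrix metalloproteinases (Mmp) with their inhibitors (Timp), and Postn, Mfap4, Fn1, Sparc, Dcn, Lum, Bgn, Fbn1 and Eln. They were picked by gene symbol in the annotation of the array, which gave 89 of 15866 probe sets and 65 of 10411 named genes. The rule read no values, but it was set with earlier results of these data known. A gene was represented by its brightest probe set, the one with the highest mean over the samples. Of the 65 genes, 51 were bright enough to be tested and 14 were not.

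Rats spent the time from birth to postnatal day 7 in 12% O2 (hypoxic) or in room air (normoxic), and RNA was taken from their adrenal glands after the outer capsule had been stripped off. There were 4 hypoxic and 4 normoxic samples. Each sample pooled 24 glands and was hybridised to an array of its own, in 1 colour. Strain and sex are not given in the sources used here, nor is how litters were spread over the pools, so a p-value here measures only the spread between pools, which may be technical.

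Fibrillar collagens of types I, III and V assemble into the tensile fibres of connective tissue, which fibroblasts lay down in a capsule and around vessels. Type IV collagen and laminin form the basement membrane, a thin sheet that every steroid cell cord, chromaffin cell cluster and sinusoid of the adrenal gland rests on. Lysyl oxidases join collagen and elastin chains outside the cell, metalloproteinases cut matrix proteins, and their inhibitors hold that cutting in check.

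Levels are given as intensity, in arbitrary units, as deposited by the authors after scaling each array to a common mean, and the array medians lay between 228.6 and 249.2. Probe sets for bacterial genes served as the background, with a 95th percentile of 46.7 and a maximum of 83.5. Genes that define the steroid cells and chromaffin cells of the gland were bright in every pool, with summed intensities from 56469 to 84403 for 6 cortex genes and from 24611 to 41664 for 5 chromaffin genes. Of the cortex genes 4 were higher and 2 lower in hypoxic pools, with Cyp11a1 at a log2 difference of 0.09 and Nr5a1 at -0.27, and all 5 chromaffin genes were higher, with Dbh at 0.52 and Chga at 0.34 (limma, adjusted p = 0.246 and 0.451). Over the whole table, 20 of 11106 tested probe sets differed between the groups at an adjusted p under 0.05 (limma), which is 0.18% (0.117% higher and 0.063% lower in hypoxic pools). That count ran from 0 to 31 when 1 pool was left out. In RNA of glands without their outer capsule, which still hold several cell types, fewer cells of a type and less RNA per cell cannot be told apart. A log2 difference is always hypoxic minus normoxic, on the scale log2(intensity + 16), where the change of a dim probe set comes out too small.

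No matrix gene passed the test across all probe sets, and the members split evenly in direction. Of the 51 tested members 0 passed an adjusted p of 0.05 in limma (smallest adjusted p = 0.271), 25 were higher and 26 lower in hypoxic pools (45.2% and 54.8% of all tested probe sets), and their median log2 difference was -0.0023 against -0.019 over all tested probe sets. At an unadjusted p under 0.05 there were 2 members, Lox and Col4a2, both higher, or 3.92% of the members. Of all tested probe sets 8.64% were at that level, 4.16% higher and 4.48% lower. For 1 member, Lox, or 1.96%, the groups did not overlap. Of all tested probe sets 5.39% showed no overlap, 2.76% with every hypoxic pool higher and 2.64% with every hypoxic pool lower. These counts lie at or below the background of the whole table.

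**Figure D1:**
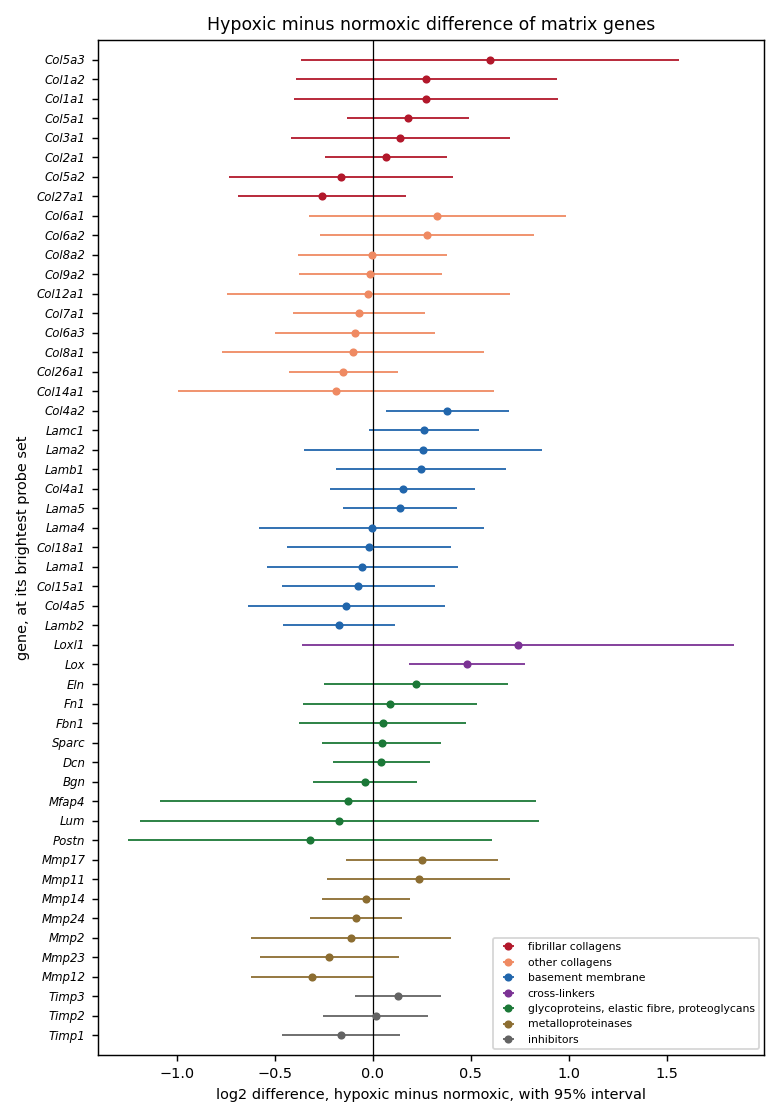
Log2 difference, hypoxic minus normoxic, of the 51 tested matrix genes at their brightest probe set (point) with its 95% interval from limma (line), n = 4 pools each, coloured by role. The intervals of Lox (0.19 to 0.78) and Col4a2 (0.07 to 0.69) lie above 0, and those of the other 49 include 0.

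The fibrillar collagens were abundant and uneven between pools. Col1a1, a chain of type I collagen, measured 4463.2, 1818.9, 1642.4 and 3903.0 in normoxic pools 1 to 4 and 4430.1, 2542.9, 3879.7 and 2535.4 in hypoxic pools 1 to 4. The highest pool of each group had almost the same value, while normoxic pools 2 and 3 lay below every hypoxic pool. The means were 2957 ± 1436 in normoxic and 3347 ± 960 in hypoxic pools (SD, n = 4 each), and the log2 difference was 0.27 (95% interval -0.40 to 0.94, limma adjusted p = 0.860). Its partner chain Col1a2 was 5941.4, 2254.7, 2219.9 and 4318.5 in normoxic and 6061.6, 3062.4, 4409.4 and 3360.3 in hypoxic pools, also a log2 difference of 0.27. The pools stood in nearly the same order for both chains, with normoxic pools 2 and 3 lowest. Dimmer probe sets of the same genes gave smaller differences, 0.20 for Col1a1 and 0.11 for Col1a2. With 1 pool left out, Col1a1 ran from 0.04 (without normoxic pool 3) to 0.51 (without normoxic pool 1) and Col1a2 from 0.07 to 0.55 without the same pools.

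Col3a1, the type III chain of pliable tissues, differed by 0.14 (interval -0.42 to 0.70). Type V chains, which set the diameter of type I fibrils, went both ways. Col5a1 differed by 0.18 and Col5a2 by -0.16, and the second probe set of each differed by 0.02 and 0.04. Col5a3, a dim gene, had the largest difference of the fibrillar group, 0.60 (interval -0.37 to 1.56, limma adjusted p = 0.759), with normoxic pools at 326.4, 33.5, 79.4 and 108.9 and hypoxic pools between 139.6 and 219.4. The highest and the lowest value were both normoxic, and the difference was 0.18 without normoxic pool 2 and 1.11 without normoxic pool 1. Col27a1 and Col2a1, collagens best known from cartilage, differed by -0.26 and 0.07. The cartilage genes Col11a1 and Col11a2 were too dim to be tested.

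The promoter windows of a fibrillar chain, Col1a2, and of Postn are shown because these genes had the same 4 pools highest and the same 4 lowest, a pair chosen after its values were seen. That split was not particular to the pair: Col1a1, Col3a1, Col6a1, Lum and the adipocyte marker Fabp4, among others, had it too. Postn encodes periostin, a protein that binds collagen fibres. Each is the RefSeq sequence of assembly GRCr8 from 250 bases before to 50 bases after the annotated start, Col1a2 at chr4:33518307-33518606 and Postn at chr2:140677811-140678110, both on the plus strand. Capitals mark the letters TATAAA and CCAAT on either strand (CCAAT reads ATTGG on the other strand).
Col1a2: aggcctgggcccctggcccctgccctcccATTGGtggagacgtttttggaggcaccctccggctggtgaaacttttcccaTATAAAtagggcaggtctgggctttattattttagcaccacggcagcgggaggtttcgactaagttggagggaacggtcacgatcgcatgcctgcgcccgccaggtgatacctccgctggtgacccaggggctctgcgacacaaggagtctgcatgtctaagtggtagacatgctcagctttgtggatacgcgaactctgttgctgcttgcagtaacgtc
Postn: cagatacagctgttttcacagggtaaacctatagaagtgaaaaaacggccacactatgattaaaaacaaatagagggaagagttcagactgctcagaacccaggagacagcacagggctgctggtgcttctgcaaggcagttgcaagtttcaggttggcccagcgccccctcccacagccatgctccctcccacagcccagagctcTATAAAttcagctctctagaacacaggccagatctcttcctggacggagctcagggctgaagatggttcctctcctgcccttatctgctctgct
TATAAA began 44 bases before the annotated start of Postn. In the window of Col1a2 it began 170 bases before the annotated start, and a CCAAT on the minus strand lay at 221 bases before. The annotated start of Col1a2 falls on the letters ATG, those of a start codon. It may thus not be where transcription starts, and the Col1a2 distances cannot be compared with that of Postn. On either strand, TATAAA was found in 14.2% and CCAAT in 37.5% of all 33469 promoter windows. Among the 47 members with a window these were 10 (21.3%) and 12 (25.5%). A match of letters is a description of the window and not evidence of binding.

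Postn itself was 1778.7, 466.4, 519.1 and 1233.2 in normoxic and 1181.2, 480.1, 930.8 and 407.6 in hypoxic pools. Each group held pools at both ends of the range, and the pools spanned 4.36-fold. The log2 difference was -0.32 (interval -1.25 to 0.61, limma adjusted p = 0.878). Lum, which encodes the small proteoglycan lumican of collagen fibrils, ranged from 308.8 to 1233.5 in normoxic and from 282.6 to 1163.0 in hypoxic pools, a log2 difference of -0.17. Mfap4, a glycoprotein of elastic fibres, ranged from 180.0 to 822.6 and from 197.2 to 523.7, a log2 difference of -0.13. For all 3 genes the highest normoxic pool was pool 1 and the highest hypoxic pool was pool 1.

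Dcn, Sparc and Bgn were bright and varied less between pools. Dcn, the proteoglycan decorin, was 4415.9, 4139.1, 4436.0 and 5246.6 in normoxic and 5646.6, 4296.4, 4656.4 and 4242.1 in hypoxic pools. Its pools spanned only 1.36-fold, while those of Lum, the next protein-coding gene to Dcn in the RefSeq annotation of assembly GRCr8, spanned 4.36-fold. Dcn differed by 0.04 (interval -0.20 to 0.29). Sparc, a collagen-binding protein of growing tissues, measured 5859.9 ± 929 and 6039.9 ± 929, a log2 difference of 0.04, and Bgn, the proteoglycan biglycan, differed by -0.04 (interval -0.31 to 0.22). Fn1, fibronectin, differed by 0.09, the microfibril gene Fbn1 by 0.05 and elastin, Eln, by 0.22, with intervals that include 0. These 3 varied more, with pools that spanned 1.87-fold, 1.79-fold and 2.04-fold. Of this group of 9 genes 5 were higher and 4 lower, and the median was 0.04.

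The 10 tested collagens outside the fibrillar and basement membrane classes had 2 higher and 8 lower members, with a median of -0.05. The 2 higher ones were Col6a1 and Col6a2, chains of the beaded microfilaments of type VI collagen. Col6a1 was 1328.4, 463.7, 465.3 and 957.1 in normoxic and 1232.2, 717.9, 917.4 and 860.7 in hypoxic pools, a log2 difference of 0.33 (interval -0.33 to 0.98, limma adjusted p = 0.817). Normoxic pools 2 and 3 were again the lowest. Col6a2, the gene next to it in the annotation, differed by 0.27, and the third chain, Col6a3, by -0.09. Among collagens that coat fibrils, Col12a1 differed by -0.02 and Col14a1 by -0.19, and a dimmer probe set of Col14a1 differed by 0.17.

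The basement membrane genes divided evenly, and type IV collagen held the second-lowest p of all members. Of 12 tested genes 6 were higher and 6 lower, with a median of 0.07. Col4a2, a chain of the widespread type IV collagen, was 1483.6, 982.1, 1109.2 and 1195.0 in normoxic and 1490.8, 1284.1, 1544.9 and 1895.3 in hypoxic pools. Normoxic pool 1 lay within the hypoxic range and the other normoxic pools lay below all hypoxic ones. The means were 1192 ± 213 and 1554 ± 254 (SD, n = 4 each), a log2 difference of 0.38 with a standard error of 0.14 (limma, unadjusted p = 0.0211, adjusted p = 0.475). The difference stayed between 0.28 and 0.49 when any 1 pool was left out. Col4a1, which pairs with Col4a2 in the same triple helix, was 1624.0, 973.0, 996.0 and 1304.9 in normoxic and 1186.3, 1266.4, 1227.2 and 1703.8 in hypoxic pools. Its groups overlapped, with a log2 difference of 0.15 (interval -0.22 to 0.52) and one of 0.25 on its second probe set. For both genes hypoxic pool 4 was the highest of all 8 and normoxic pool 2 the lowest.

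Col4a1 and Col4a2 are neighbours that are read in opposite directions, and their windows are shown because the 2 chains are known to share a promoter region. The annotated starts lie 77 bases apart on chromosome 16 of GRCr8. The window of Col4a1 is chr16:84885347-84885646 on the plus strand and that of Col4a2 is chr16:84885471-84885770 on the minus strand. Capitals mark the 176 bases that both windows hold, as 1 strand in the first and the other strand in the second.
Col4a1: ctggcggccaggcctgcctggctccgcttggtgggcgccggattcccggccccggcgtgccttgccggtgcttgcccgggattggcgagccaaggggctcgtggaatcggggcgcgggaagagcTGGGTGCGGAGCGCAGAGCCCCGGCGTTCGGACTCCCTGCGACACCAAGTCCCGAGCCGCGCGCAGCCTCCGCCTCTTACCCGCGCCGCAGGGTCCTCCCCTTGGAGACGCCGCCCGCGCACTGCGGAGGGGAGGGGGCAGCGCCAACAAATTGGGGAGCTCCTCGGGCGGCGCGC
Col4a2: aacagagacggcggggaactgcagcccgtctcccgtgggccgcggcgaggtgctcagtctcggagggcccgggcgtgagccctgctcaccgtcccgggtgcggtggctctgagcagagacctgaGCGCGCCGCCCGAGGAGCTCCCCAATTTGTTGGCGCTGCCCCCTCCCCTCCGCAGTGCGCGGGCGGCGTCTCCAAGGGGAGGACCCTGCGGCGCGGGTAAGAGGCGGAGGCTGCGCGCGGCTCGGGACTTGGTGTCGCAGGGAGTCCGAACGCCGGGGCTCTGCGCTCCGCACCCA
Both windows were rich in G and C, 75.0% for Col4a1 and 73.7% for Col4a2 against a median of 51.7% over all windows, and held 38 and 37 CG dinucleotides against a median of 7. Col1a2, shown above, held 15 and Postn 3. The core of the element bound by hypoxia-inducible factors is written ACGTG or GCGTG. Of the 47 member windows 20 held at least 1 of these on either strand, or 42.6%, against 41.6% of all windows. ACGTG was in 4 of them (Col26a1, Col4a5, Mmp12 and Mmp13), or 8.51% against 19.3% of all windows, and GCGTG in 17, or 36.2% against 29.7%. Col4a1 and Col4a2 held GCGTG but not ACGTG. 

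Laminin chains differed by small amounts. Lamc1, the gamma chain found in most laminins, was 1528.7, 1086.6, 1309.6 and 1531.3 in normoxic and 1489.6, 1516.4, 1594.8 and 1929.9 in hypoxic pools, a log2 difference of 0.26 (interval -0.02 to 0.54, limma adjusted p = 0.617). Normoxic pools 1 and 4 lay within the hypoxic range, and a dimmer probe set of Lamc1 differed by 0.02. Lamb1 differed by 0.24, Lama2 of muscle and nerve sheaths by 0.26, Lama5 by 0.14, Lama4 of vessel walls by -0.01 and Lamb2 by -0.17. The collagens that carry the endostatin-like domains, Col15a1 and Col18a1, differed by -0.07 and -0.02. All these intervals include 0. Endothelial markers lay between 5754 and 6607 in summed intensity in normoxic and between 5504 and 6392 in hypoxic pools (10 of 12 list genes measured, none with a mean under the 95th percentile of the bacterial controls). Of these 10 genes 4 were higher and 6 lower. Pecam1, an adhesion protein of endothelial junctions, differed by -0.53 (limma, adjusted p = 0.238) and Plvap by -0.26. Every hypoxic pool was lower for Pecam1, as for 2.64% of all tested probe sets. The 4 higher genes were Eng (0.22), Flt1 (0.16), Kdr (0.11) and Esam (0.06). The part of vessels in the basement membrane values was not tested.

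Of the lysyl oxidases, Lox had the lowest p of all members. Its brightest probe set was 400.0, 319.7, 414.4 and 399.0 in normoxic and 527.1, 496.7, 473.5 and 679.4 in hypoxic pools. Every hypoxic pool lay above every normoxic pool. The means were 383 ± 43.0 and 544 ± 92.8 (SD, n = 4 each), a fold of 1.40 and a log2 difference of 0.48 with a standard error of 0.14 (limma, unadjusted p = 0.00402, adjusted p = 0.271). The second probe set was 336.8, 244.0, 190.4 and 275.0 in normoxic and 294.7, 304.8, 361.8 and 474.7 in hypoxic pools. There normoxic pool 1 lay within the hypoxic range, and the log2 difference was 0.44 (limma, adjusted p = 0.546). Loxl1, which acts on elastic fibres, was 584.0, 275.7, 49.4 and 361.1 in normoxic and 452.5, 361.8, 466.1 and 378.1 in hypoxic pools. Its log2 difference of 0.74 (interval -0.36 to 1.84) rested on normoxic pool 3, without which it was 0.08, and was 1.15 without normoxic pool 1.

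**Figure D2:**
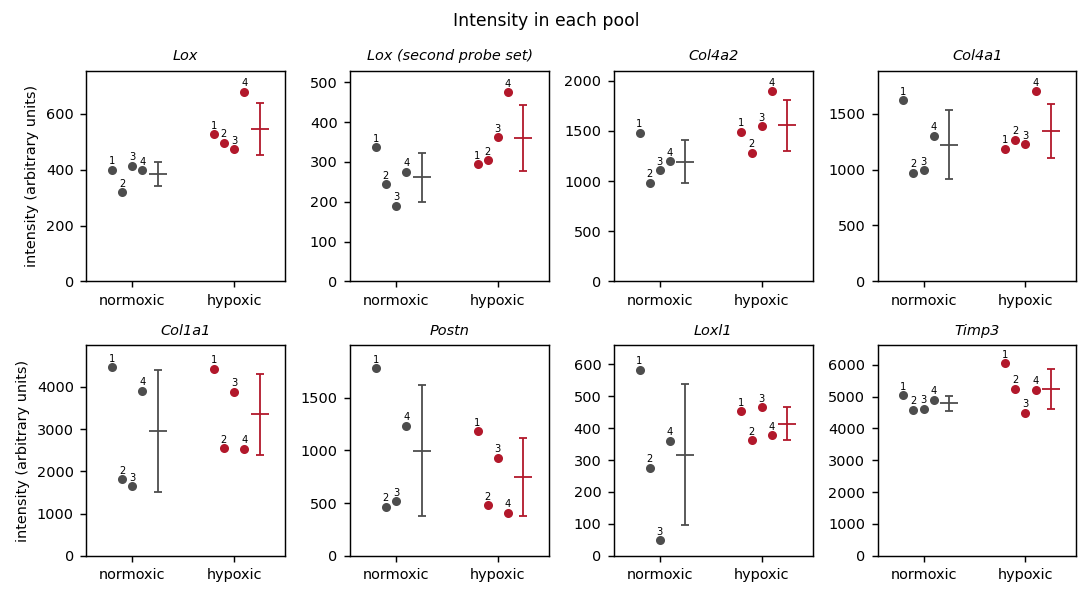
Intensity in arbitrary units of Lox (2 probe sets), Col4a2, Col4a1, Col1a1, Postn, Loxl1 and Timp3 in every pool, with the replicate number above each point and the mean and SD of 4 pools beside them. All 4 hypoxic points of the brightest Lox probe set (473.5 to 679.4) lie above the normoxic ones (319.7 to 414.4), while the groups overlap in the other panels.

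Metalloproteinases and their inhibitors were mostly dim or even. Of 14 metalloproteinase genes 7 were bright enough to be tested, 2 higher and 5 lower, with a median of -0.09. Mmp14, the membrane-bound enzyme that activates Mmp2, was 2976.6, 3018.5, 2654.4 and 2838.7 in normoxic and 2618.0, 2554.7, 2716.0 and 3366.1 in hypoxic pools, a log2 difference of -0.04 (interval -0.26 to 0.19). The gelatinase gene Mmp2 differed by -0.11 on its brighter and 0.08 on its dimmer probe set, and its normoxic pools ranged from 325.6 to 662.9. Of the other membrane-bound enzymes, Mmp24 differed by -0.09 and Mmp17 by 0.25. Mmp12, the elastase of macrophages, was 214.1, 237.1, 311.1 and 243.9 in normoxic and 170.2, 214.8, 202.7 and 206.6 in hypoxic pools. Only hypoxic pool 2 reached the lowest normoxic pool, and the log2 difference was -0.31 (limma, unadjusted p = 0.0508, adjusted p = 0.578). Leukocyte markers (9 of 10 measured) summed to between 4659 and 5908 in normoxic and between 4115 and 5017 in hypoxic pools. Lyz2 alone gave between 2004.9 and 3186.6 of that sum, and Ptprc, the pan-leukocyte marker, was too dim to be tested, with pools from 48.2 to 103.1. Of the 8 tested markers 2 were higher and 6 lower, with a median of -0.26, and 3 were lower at an unadjusted p under 0.05, where 4.48% of all probe sets were. These 3 encode the chains of complement C1q, which macrophages make, while the 2 higher markers were Csf1r (0.14) and Cd74 (0.17). C1qa differed by -0.42 and C1qc by -0.34 (limma, adjusted p = 0.304 and 0.438), and C1qb by -0.38 (adjusted p = 0.487). For C1qa and C1qc every hypoxic pool was lower, as for 2.64% of all tested probe sets. Their part in the Mmp12 value was not tested.

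As a class, the inhibitor genes varied least at their brightest probe sets. Timp3, which stays bound to the matrix, was 5044.8, 4585.3, 4615.6 and 4898.8 in normoxic and 6043.6, 5250.2, 4496.9 and 5221.7 in hypoxic pools. Hypoxic pool 3 was the lowest of all and the other hypoxic pools were the highest, with a log2 difference of 0.13 (interval -0.09 to 0.35). The other probe sets of Timp3 differed by 0.05, -0.11 and -0.51 (the last at a limma adjusted p of 0.662). Dimmer probe sets could vary more: the pools of that last one spanned 2.74-fold, and those of the second Timp2 probe set 2.08-fold. Timp2 differed by 0.01 (interval -0.26 to 0.28) and Timp1, a secreted inhibitor, by -0.16 (interval -0.46 to 0.14).

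The 14 members that were not tested had mean intensities from 5.48 to 79.9, all below the brightest bacterial control and 9 of them below the 95th percentile of those controls. They were Col4a4, Col9a1, Col10a1, Col11a1, Col11a2, Col19a1, Lama3, Mmp3, Mmp7, Mmp8, Mmp9, Mmp10, Mmp13 and Mmp16. Several are enzymes of inflamed or cartilage tissue, among them the neutrophil collagenase gene Mmp8 and the gelatinase gene Mmp9. Mmp9 lay between 50.5 and 84.6 in normoxic and between 35.5 and 71.8 in hypoxic pools, a range that includes values of the bacterial controls. Of 15 genes with more than 1 tested probe set, all probe sets of 7 had the same sign (Col1a1, Col1a2, Col4a1, Col5a1, Col18a1, Lamc1 and Lox), and those of 8 did not.

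Fibrillar and basement membrane genes were compared by their medians. The 8 tested fibrillar collagens had a median log2 difference of 0.16, with 6 higher and 2 lower, and the 12 basement membrane genes one of 0.07, so the medians differed by 0.09. With the untested members included, the medians were 0.10 over 10 and -0.01 over 14 genes. The level of a class in a pool was taken as the mean over its tested genes of the log2 value minus the gene's mean over all 8 pools. The fibrillar level was 0.52, -0.52, -0.41 and 0.13 in normoxic pools 1 to 4 and 0.38, -0.13, 0.12 and -0.10 in hypoxic pools 1 to 4. The basement membrane level was 0.32, -0.27, -0.23 and 0.02 in normoxic and 0.14, -0.10, 0.07 and 0.06 in hypoxic pools. Fibrillar minus basement membrane was -0.03 ± 0.22 in normoxic and 0.03 ± 0.17 in hypoxic pools (SD, n = 4 each), a gap smaller than either SD. It turned to -0.04 in the medians when hypoxic pool 1 was left out and to -0.0027 without normoxic pool 3.

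**Figure D3:**
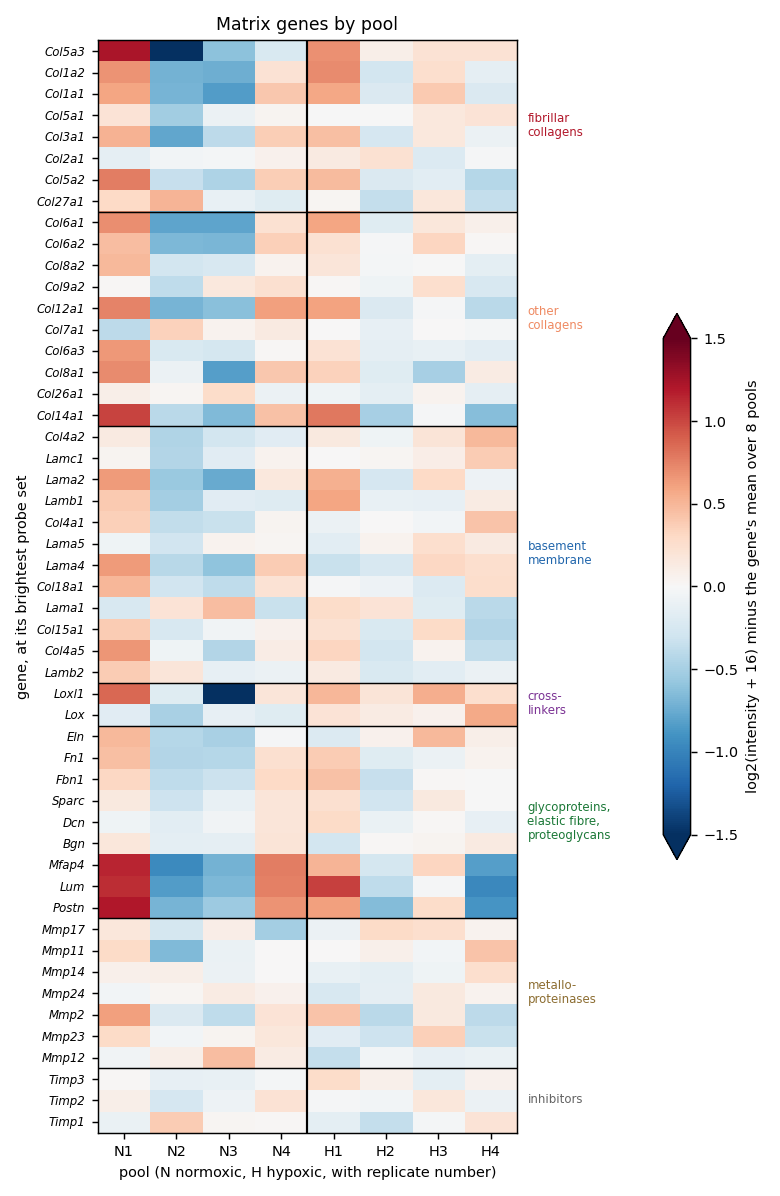
Log2(intensity + 16) of the 51 tested matrix genes in each pool, minus the gene's mean over 8 pools, grouped by role and ordered by difference. Columns N2 and N3 are mostly blue and column N1 mostly red in the collagen and glycoprotein blocks, while Timp and most Mmp rows are pale.

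The pools of a group differed more in most of these genes (41 of 51) than in the median probe set. The SD between pools within a group had a median of 0.49 on the log2 scale for fibrillar collagens, 0.39 for other collagens, 0.37 for glycoproteins, elastic fibre and proteoglycans, and 0.32 for basement membrane genes, against 0.19 over all tested probe sets. It was 0.25 for metalloproteinases and 0.16 for their inhibitors. The SD lay above the median of all probe sets for 7 of 8 fibrillar collagens and 11 of 12 basement membrane genes. Normoxic pool 1 was the highest of the 8 pools for 23 of 51 members (45.1%, against 11.7% of all tested probe sets). Normoxic pool 2 was the lowest for 20 (39.2%, against 10.3%) and normoxic pool 3 for 13 (25.5%, against 11.0%). Normoxic pool 1 had the lowest class level of all for the genes that define the gland's own cells. This did not hold for each gene: Nr5a1, for example, was lowest in hypoxic pool 1 and Dbh in normoxic pool 4. The cortex level was -0.36, 0.02, 0.28 and 0.08 in normoxic and -0.18, -0.14, 0.17 and 0.13 in hypoxic pools. The chromaffin level was -0.35, 0.04, 0.02 and -0.23 in normoxic and -0.15, 0.04, 0.28 and 0.36 in hypoxic pools. The part of the glands' cell makeup in the pool pattern was not tested. The 5' over 3' signal ratio of beta-actin, a sign of RNA quality, was 0.413, 0.598, 0.744 and 0.674 in normoxic and 0.249, 0.491, 0.713 and 0.528 in hypoxic pools. It was lowest in pool 1 of each group, the pools with the highest fibrillar levels, and its part in the result was not tested. The same ratio of Gapdh was 0.639, 0.587, 0.731 and 0.701 in normoxic and 0.618, 0.602, 0.556 and 0.659 in hypoxic pools. That ratio was lowest in normoxic pool 2 and hypoxic pool 3. The fibrillar level spanned 2.05-fold over the pools, that of basement membrane genes 1.50-fold and that of the inhibitors 1.13-fold.

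Markers of brown fat and adipocytes, cells that lie around the gland, differed between the same pools. Their level, taken in the same way over 10 tested genes, was 0.85, -0.45, -0.16 and 0.65 in normoxic and 0.18, -0.94, 0.26 and -0.39 in hypoxic pools. The 13 measured genes of the 14 on the list summed to between 5312 and 15538 in normoxic and between 4668 and 11189 in hypoxic pools, and Dio2 had a mean under the 95th percentile of the bacterial controls. All 10 tested genes were lower in hypoxic pools, as were 54.8% of all tested probe sets, and 0 passed in limma. At an unadjusted p under 0.05 there were 2, Ucp1 (-1.46) and Cox7a1 (-0.75), where 4.48% of all tested probe sets were lower. Cox7a1 did not follow the level of the list within the normoxic group. It was 120.8, 161.2, 165.3 and 105.2 in normoxic pools 1 to 4, with pools 1 and 4 lowest. Lipe did not follow the level within the hypoxic group. Its values were 408.8, 901.7, 1299.1 and 933.9 in hypoxic pools 1 to 4, with pool 1 lowest. Ucp1, the uncoupling protein that defines brown fat, was 1675.2, 388.8, 381.2 and 1820.3 in normoxic and 510.7, 92.3, 359.8 and 386.1 in hypoxic pools, so it was well above the bacterial controls in all but hypoxic pool 2, where it was just above the brightest of them. Markers of fibroblasts and capsule cells that are not members (16 of 18 measured, 1 with a mean under that percentile) summed to between 12546 and 16108 in normoxic and between 11731 and 16286 in hypoxic pools. Their level was 0.25, -0.18, -0.11 and 0.27 in normoxic and 0.08, -0.23, 0.07 and -0.14 in hypoxic pools. Smooth muscle and pericyte markers (9 of 9 measured, 1 with a mean under that percentile) summed to between 1569 and 2610 in normoxic and between 1777 and 2301 in hypoxic pools. Of the fibroblast markers 5 were higher and 9 lower of 14 tested. Pi16 was at -0.51 and Fap at -0.34, and the highest were Pdgfra at 0.20 and Vim at 0.15. Of the smooth muscle and pericyte markers 3 were higher and 5 lower of 8, with Cspg4 at 0.35 and Rgs5 at -0.28. Schwann cell markers had 2 higher and 3 lower of 5 tested, with Gfap at -0.36 and Mbp at -0.19. The 2 higher ones were Pmp22 at 0.16 and Erbb3 at 0.13. The part of these cells in the pool differences was not tested beyond the fit that follows.

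**Figure D4:**
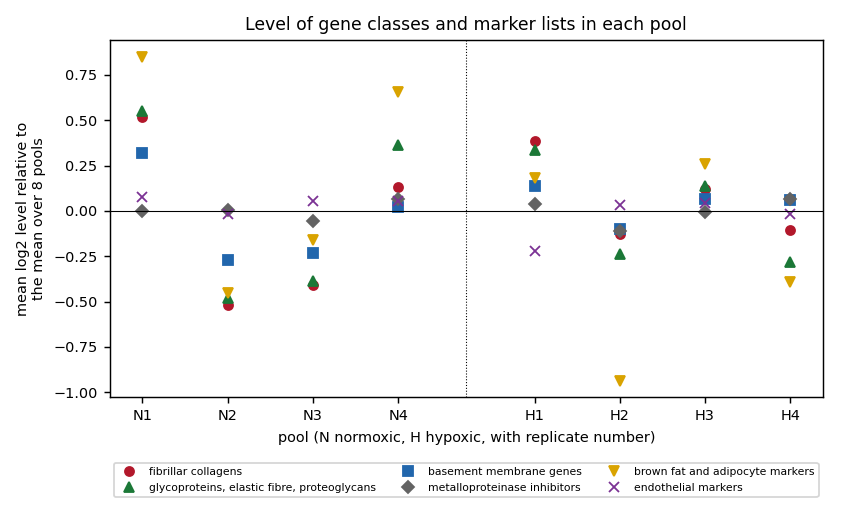
Mean log2 level of 4 matrix classes and of 2 marker lists in each pool, relative to their mean over 8 pools. Brown fat and adipocyte markers run from -0.94 to 0.85 and fibrillar collagens from -0.52 to 0.52, while the inhibitors stay between -0.11 and 0.07.

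With the mean of the 10 brown fat and adipocyte genes as a covariate, the collagens stood higher in hypoxic pools, and still none passed. In that fit 41 of 51 members were higher (80.4%, against 45.6% of all tested probe sets) and the median was 0.21, against -0.0023 without the covariate. At an unadjusted p under 0.05, 15 members were higher, or 29.4%, where 4.4% of all probe sets were, and 1 was lower (Mmp12), where 4.2% were. The smallest adjusted p was 0.197 (limma). The 15 included 5 of 8 fibrillar collagens and 4 of 12 basement membrane genes, and the class medians were 0.39 and 0.21. Col1a1 had a log2 difference of 0.68 with a standard error of 0.16, Col1a2 one of 0.68, Col6a1 one of 0.71, Col3a1 one of 0.48, Lama2 one of 0.61 and Col4a2 one of 0.49. Lox, at 0.51, was close to its value without the covariate. Lum, Mfap4 and Postn turned from lower to higher, at 0.39, 0.43 and 0.25. The covariate itself was lower in hypoxic pools on average (-0.22 against 0.22). For a member that rose with it within the groups, the fit therefore moved the log2 difference upward. Group and covariate cannot be fully told apart, and the members share all 8 pools. With the 5' over 3' signal ratio of Gapdh as the covariate, 28 members were higher and 23 lower, where 45.0% of all probe sets were higher. In that fit 3 members were higher and 1 lower at an unadjusted p under 0.05, where 3.47% and 3.85% of all probe sets were. Lox differed by 0.65 (limma, adjusted p = 0.148).

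None of the genes that prepare collagen for secretion passed the test. Of 14 measured genes of hydroxylation, folding and trimming, 10 were higher and 4 lower, with a median of 0.04, and 0 passed in limma, with 0 at an unadjusted p under 0.05. P4ha1, a prolyl hydroxylase subunit, had means of 269 ± 48.9 and 335 ± 68.4, a log2 difference of 0.29 (limma, adjusted p = 0.681). P4ha2, another such subunit, differed by 0.05. The lysyl hydroxylase genes went both ways, with Plod3 at 0.20 and Plod2 at -0.16. The largest difference of the list was that of Crtap, a partner of prolyl 3-hydroxylase, at -0.64 (limma, adjusted p = 0.699), and the procollagen protease gene Bmp1 differed by -0.31; both were picked out after their values were seen. Of 10 other tested basement membrane genes 5 were higher and 5 lower. Pxdn, the peroxidase that cross-links type IV collagen, differed by -0.39 (limma, unadjusted p = 0.0251, adjusted p = 0.499), opposite in sign to Col4a2, and Nid1, which links laminin to type IV collagen, by 0.15. Matrix receptors had 6 higher and 6 lower of 12 tested. The collagen receptor gene Ddr1 differed by 0.29 (limma, adjusted p = 0.570) and the laminin receptor subunit Itga6 by -0.22. In the axis of transforming growth factor beta, the main inducer of fibrillar collagen, 6 were higher and 5 lower of 11 tested. Tgfb3 differed by 0.36 and its target Ccn2 by 0.34 (limma, adjusted p = 0.601 and 0.628). The lowest were Smad7 at -0.17 and Skil at -0.14. Tgfb1 was too dim to be tested, with pools from 12.4 to 165.9. None of these genes passed over all probe sets.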

How the data were processed

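RNA of 8 pools of adrenal glands was read on 8 arrays. The deposited numbers are linear intensity readings, 1 for each probe set; in them each array has the same mean (500.1) after trimming 2% at each end, so the authors had scaled them, which hides a change shared by most transcripts. The summarising software and the genome build of the array are not given in the sources used here. Gene symbols came from the platform annotation, which can be old, and all 89 member probe sets matched a gene ID in the RefSeq table of GRCr8. Members, classes, lists and tests were chosen with earlier results of these data known.

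Readings were raised to at least 1, given an offset of 16 and put on the log2 scale. Probe sets with a mean below the 30th percentile (95.2) and 57 control probe sets were left out, which kept 11106. limma 3.58.1 (R 4.3.3; eBayes, trend) gave two-sided p-values, which were adjusted by Benjamini and Hochberg's method over all 11106 and called at 0.05; the steps were tested on simulated data. Genes were named where they had an unadjusted p under 0.05, stood highest in level or extreme in difference in their class, or were on a fixed panel; of each other list, the 2 with the lowest p. Lama2, Col2a1, Col12a1, P4ha2, Plod2, Crtap, Bmp1, C1qb, Lyz2, Ptprc, Dio2 and genes in lists of untested members were named besides. So were Csf1r, Cd74, Eng, Flt1, Kdr, Esam, Smad7, Skil, Tgfb1, Lipe, Fabp4, Pmp22, Erbb3, Pdgfra and Vim. Alternatives changed the offset, filter, variance trend, normalization, probe sets, covariates, class definition and pools. Python 3.11.15, pandas 2.3.3 and matplotlib 3.10.9 made tables and plots.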

Additional observations from a re-analysis of the deposited data

Results flagged for a closer look

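Among 40 named genes and 7 class levels, tested in each group of 4 pools, 94 tests for a pool far from the others gave 2 such values, where chance gives about 1 in 20. Lox in normoxic pool 2, at 319.7, lay below the other normoxic pools, which were between 399.0 and 414.4; without that pool the log2 difference of Lox was 0.40 (limma, adjusted p = 0.540). Col6a3 in hypoxic pool 1, at 524.7, lay above the other hypoxic pools, which were between 400.3 and 412.9.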

How the results depend on the processing

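Of 39 named and tested genes 0 passed an adjusted p of 0.05 under any alternative (lowest adjusted p 0.148 in limma, for Lox with the Gapdh covariate), and 19 kept their direction under all of them, among them Lox, Col4a2, Col1a1 and Col1a2. The count of called matrix members was 0 in every fit. The count of called probe sets, 20, was 0 with the Gapdh covariate, 0 with no brightness filter, 0 with no variance trend and 10 with the brown fat covariate, and ran from 0 to 31 with 1 pool left out (31 without hypoxic pool 1, 2 without hypoxic pool 4, 1 without normoxic pool 4 and 0 without any other pool); with the replicate number as a block it was 18, and the block changed no call of a member. Same-numbered pools did not deviate together in every pair (correlations from -0.043 to 0.32), and not every pool correlated best with its own number, so the numbers were not used as a pairing. With 1 pool left out, the fibrillar median (0.16) ran from 0.05 to 0.31, the basement membrane median (0.07) from 0.03 to 0.17 and their difference (0.09) from -0.04 to 0.13. Under the other alternatives they ran from 0.14 to 0.39, from -0.0069 (probe sets averaged per gene) to 0.21 and from 0.03 to 0.18. These moves are smaller than the wide SD of the class level between pools, and large against the medians themselves. The direction turned with the brown fat covariate for Bgn (0.0041), Col14a1 (0.26), Col15a1 (0.12), Col18a1 (0.12), Col5a2 (0.13), Col6a3 (0.083), Lama4 (0.25), Lum (0.39), Mfap4 (0.43), Mmp2 (0.18) and Postn (0.25). It turned with the Gapdh covariate for Col18a1 (0.041), with quantile normalization for Col18a1 (0.014) and Lama4 (0.023), and with probe sets averaged per gene for Col6a2 (-0.012), Fbn1 (-0.0091), Sparc (-0.0092), Timp2 (-0.064) and Timp3 (-0.11). With 1 pool left out, the log2 difference spanned 0 for 18 genes: Bgn -0.095 to 0.045, Col14a1 -0.48 to 0.12, Col15a1 -0.18 to 0.0596, Col18a1 -0.15 to 0.14, Col3a1 -0.097 to 0.34, Col5a2 -0.35 to 0.064, Col6a3 -0.19 to 0.11, Dcn -0.047 to 0.11, Fbn1 -0.087 to 0.17, Fn1 -0.045 to 0.25, Lama4 -0.21 to 0.21, Lum -0.54 to 0.17, Mfap4 -0.47 to 0.23, Mmp14 -0.13 to 0.0067, Mmp2 -0.27 to 0.074, Postn -0.60 to 0.027, Sparc -0.052 to 0.15, Timp2 -0.069 to 0.087. The cause of these turns was not tested. The number of arrays and signal over background limit what dim members can show, and a filter at the 50th percentile gave no value for the dimmest of them.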
